A study of Mus musculus with 6 samples.

Results

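The genes described here are 38 genes of PPAR-alpha, peroxisomal and omega oxidation, called the PPAR-alpha list below. PPAR-alpha is a nuclear receptor of the liver that is activated by fatty acids, and the list is not confined to its targets. The list was set by gene function, but with earlier results of these data known, so its shares beside all genes are descriptive. It covers the receptor, fatty acid oxidation in peroxisomes, omega oxidation, acyl-CoA thioesterases and fatty acid transport. A gene counted as measured when a probe set on the array was annotated to that gene alone, and the probe set with the highest mean was used where there were several. This gave 34 measured genes out of 22180 genes in all. Cyp4a10, Cyp4a32 and Acot8 lay on probe sets shared with another gene, and Acsl1 was named on no probe set of the annotation used here, so these 4 genes were not analysed here.

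Gene expression was read in the liver of 2 mouse substrains, Balb/c and Balb/cBy, on 1-colour Affymetrix arrays, with 3 arrays per substrain. All were males kept singly, given a high-fat diet (58% of energy from fat) for 12 weeks from the age of 8 weeks, and were 20 weeks old. Both substrains are inbred albino mice bred apart from a common stock, and Balb/cBy mice are known to carry a deletion in Acads, the mitochondrial short-chain acyl-CoA dehydrogenase. Replicates are described as biological, and the labels name no supplier, litter or other diet, so the values compare substrains on this diet and not the response to it.

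PPAR-alpha pairs with the retinoid X receptor on DNA and raises transcription of genes that burn fatty acids, above all in fasting and when fat is plentiful. Peroxisomes shorten very long, branched and dicarboxylic fatty acids by their own beta-oxidation, which yields hydrogen peroxide that catalase removes. The Cyp4a enzymes of the endoplasmic reticulum oxidise the far, omega end of fatty acids, and the dicarboxylic acids made in this way pass on to peroxisomes. In mouse liver, genes of these pathways belong to the classic response to PPAR-alpha ligands.

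The DNA element bound by this receptor pair is a direct repeat of AGGTCA with 1 base between the copies. It was looked for on both strands of the 250 bases before the transcription starts of each gene (RefSeq, GRCm38.p6), which were available for 29 of the 38 genes. Abcd2, Amacr, Angptl4, Crat, Cyp4a10, Cyp4a14, Cyp4a31, Hsd17b4 and Vnn1 were not matched. The closest match per gene was kept over all of its starts. None of the 29 held the exact repeat, which 0.0407% of 27025 genes did. A match with at most 2 mismatches was found in 5 of the 29 (17.2%), against 3.72% of all genes, and the half-site AGGTCA alone, which the full repeat contains, in 27.6% against 15.8%. The windows of 61 bases below show these 5 matches and, for comparison, the best match of Acaa1b and Acot1, which differed most between the substrains. Capitals mark the 13 bases compared with the repeat, and each window reads along the strand of its gene.
Acot12 (chr13:91741387-91741447, + strand, 1 mismatch): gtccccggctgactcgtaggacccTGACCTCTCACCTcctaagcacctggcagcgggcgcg
Acot4 (chr12:84038318-84038378, + strand, 2 mismatches): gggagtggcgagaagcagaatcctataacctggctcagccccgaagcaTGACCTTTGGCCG
Cat (chr2:103485321-103485381, - strand, 2 mismatches): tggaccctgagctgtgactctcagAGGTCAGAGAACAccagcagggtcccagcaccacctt
Cd36 (chr5:17835923-17835983, - strand, 2 mismatches): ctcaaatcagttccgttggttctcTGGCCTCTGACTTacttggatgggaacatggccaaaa
Creb3l3 (chr10:81092764-81092824, - strand, 2 mismatches): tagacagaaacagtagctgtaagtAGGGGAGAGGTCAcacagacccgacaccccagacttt
Acaa1b (chr9:119157240-119157300, - strand, 4 mismatches): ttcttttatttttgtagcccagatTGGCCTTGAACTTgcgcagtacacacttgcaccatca
Acot1 (chr12:84009385-84009445, + strand, 4 mismatches): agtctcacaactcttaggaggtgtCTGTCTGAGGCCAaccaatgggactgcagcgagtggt
A match is a likeness of letters and not a measured binding site, and elements outside these windows were not looked for.

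Across the list, 26 of 34 measured genes (76.5%) had a lower mean in Balb/cBy than in Balb/c, where 50.9% of all genes did. The median log2 difference, always given as Balb/cBy minus Balb/c, was -0.15, beside -0.00282 over all genes. The largest difference was that of the peroxisomal thiolase Acaa1b at -0.87, and the differences of the others lay between -0.42 for the thioesterase Acot1 and 0.41 for the pantetheinase Vnn1. No gene of the list passed an adjusted p of 0.05 in limma, and 0 of 22180 genes (0%) did, with 833 (3.76%) at an unadjusted p under 0.05. Unadjusted p under 0.05 was reached by Acaa1b, Acot1 and the peroxisomal transporter Abcd3, all lower in Balb/cBy (8.82% of the list), beside 1.16% of all genes in that direction, and no listed gene reached it upward (2.59% of all genes). In 5 genes every Balb/cBy array lay below every Balb/c array, namely Acaa1b, Hsd17b4, Cat, Acot1 and Creb3l3 (14.7%, beside 3.51% of all genes), and no gene of the list lay without overlap in the other direction (4.32% of all genes). Every measured gene of the list had an adjusted p of 0.999 over all genes. With 3 arrays in each group the smallest p that an exact two-sided permutation test allows is 0.1. Any gene without overlap must give this value, so it adds nothing for the 5 genes.

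**Figure D1:**
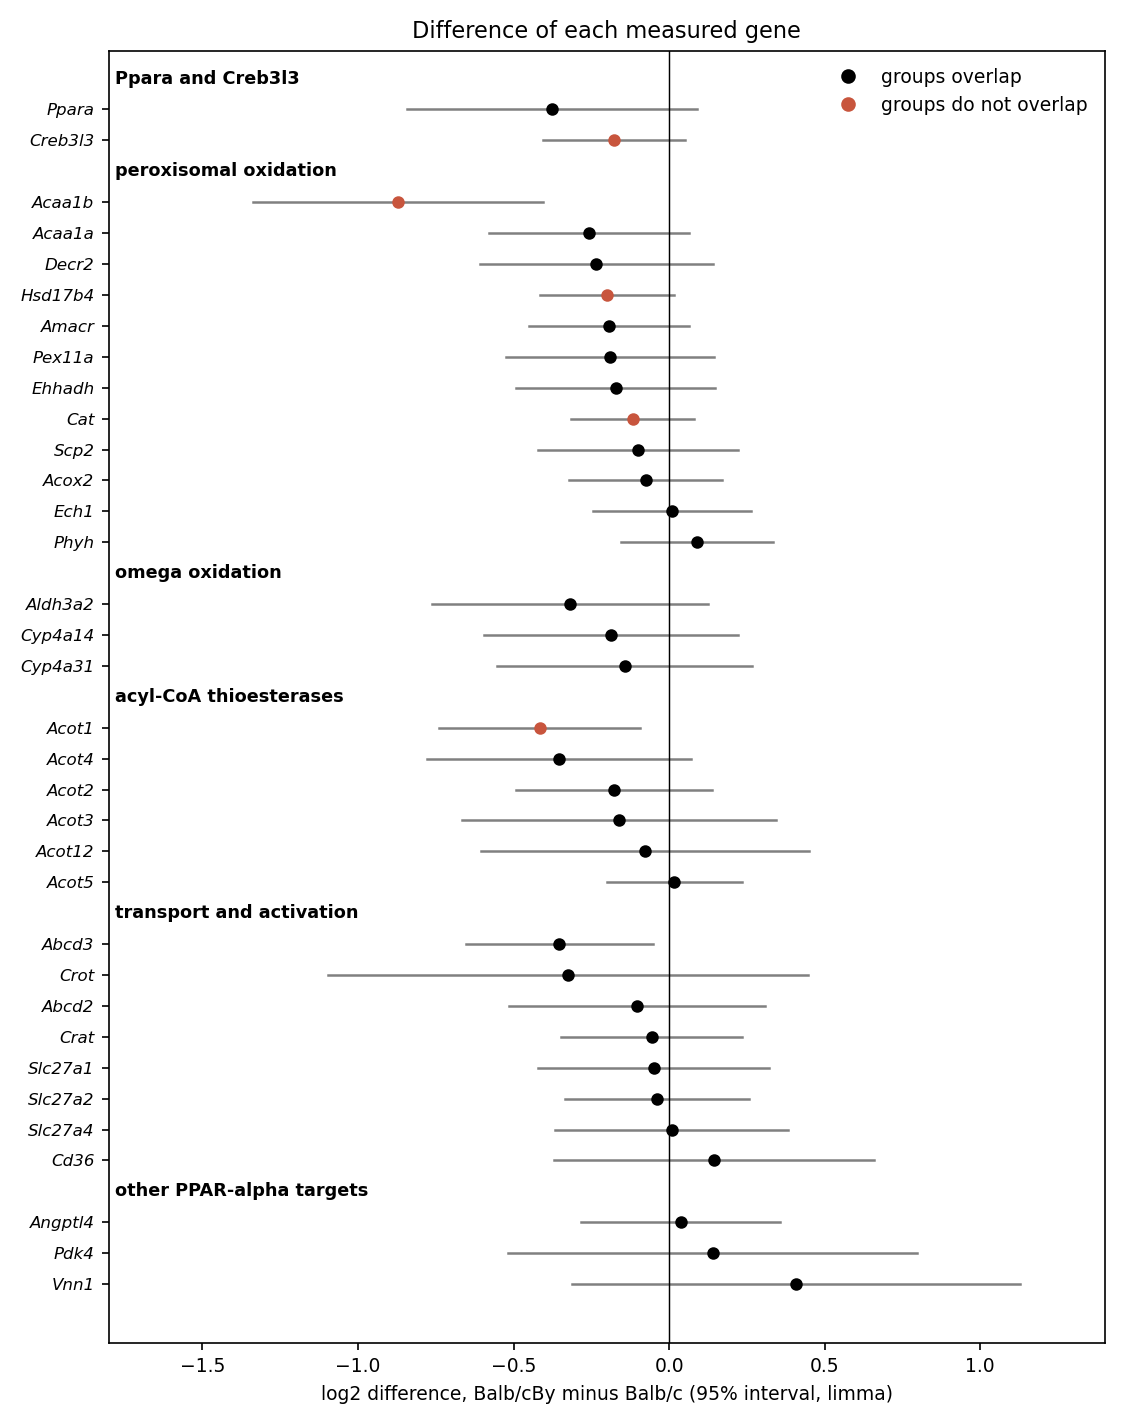
Log2 difference (Balb/cBy minus Balb/c) of each of the 34 measured genes, by subgroup, with its 95% interval from limma as a line. Red points are the 5 genes whose groups did not overlap, and the interval lies wholly below 0 for Acaa1b, Acot1 and Abcd3.

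Much of the shift lay in single arrays, namely Balb/cBy replicate 1 and Balb/c replicate 1. Balb/cBy replicate 1 was the lowest of the 6 arrays for 20 of the 34 genes (58.8%), where it was lowest for 14.7% of all genes. Its value lay below all 3 Balb/c arrays for 21 of the 34 genes (61.8%, beside 20.1% of all genes), that of Balb/cBy replicate 3 for 15 (44.1%, beside 26.7%), and that of Balb/cBy replicate 2 for 9 (26.5%, beside 27.9%). Balb/cBy replicate 2 was thus about as often below Balb/c in this list as among all genes, and it was the lowest array for 0 of the 34 genes. On the other side, Balb/c replicates 1 and 3 were each the highest array for 13 of the 34 genes, beside 2449 and 3623 of all 22180 genes. Averaged over the list, the arrays deviated from each gene's mean by 0.16, -0.01 and 0.07 in Balb/c replicates 1, 2 and 3 and by -0.22, 0.06 and -0.05 in Balb/cBy. The groups overlapped, since Balb/cBy replicate 2 lay above Balb/c replicate 2. Without Balb/cBy replicate 1 the median difference was -0.08, and 24 of 34 genes were lower (70.6%, beside 53.3% of all genes). Leaving out Balb/c replicate 1 gave -0.07 and 23 genes (67.6%, beside 51.7%).

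**Figure D2:**
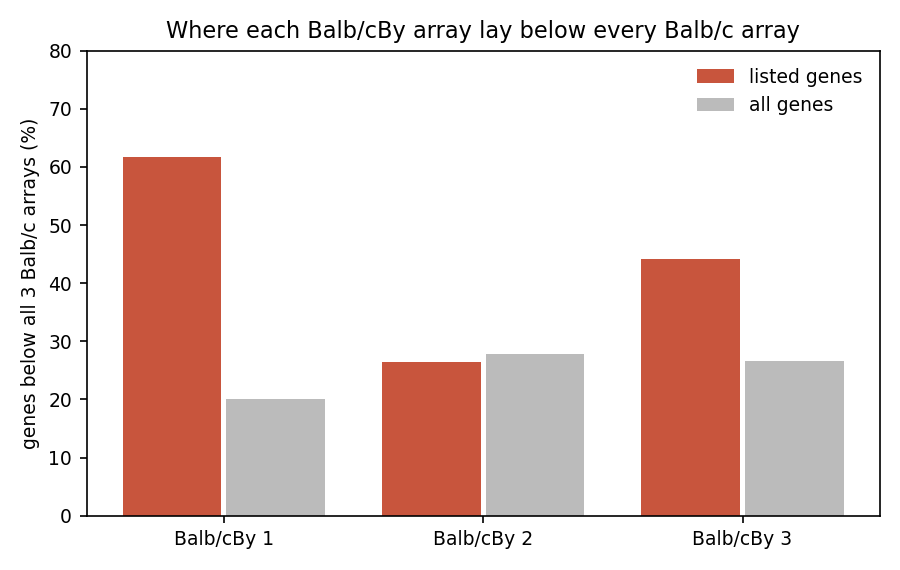
Percent of genes whose value in a given Balb/cBy array lay below all 3 Balb/c arrays, for the 34 listed genes (red) and all 22180 genes (grey). The bars of the list stand above those of all genes for Balb/cBy replicates 1 (61.8%) and 3 (44.1%), and are level for replicate 2 (26.5%).

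The receptor itself, Ppara, read 10.43, 10.45 and 10.81 (log2 expression) in Balb/c replicates 1, 2 and 3 and 9.74, 10.27 and 10.54 in Balb/cBy. Balb/cBy replicate 1 was the lowest, while Balb/cBy replicate 3 lay above 2 Balb/c arrays. The difference of Ppara was -0.38 (SE 0.20, 95% interval -0.84 to 0.09), an interval that includes 0, and it was -0.16 without Balb/cBy replicate 1. Creb3l3 encodes CREB-H, a liver transcription factor of the endoplasmic reticulum membrane that acts together with PPAR-alpha. Its values were 11.71, 11.74 and 11.91 in Balb/c and 11.51, 11.63 and 11.68 in Balb/cBy. The groups of Creb3l3 lay close but apart, with a difference of -0.18 (SE 0.10).

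Of the 12 genes of peroxisomal oxidation, all measured, 10 had a lower mean in Balb/cBy, with a median difference of -0.18. Acaa1b, a thiolase that makes the last cut of the peroxisomal cycle, stood at 10.995, 10.98 and 10.80 in Balb/c and at 9.54, 10.32 and 10.30 in Balb/cBy. All 3 Balb/cBy mice lay at least as far below the lowest Balb/c mouse as the Balb/c mice lay apart, and Balb/cBy replicate 1 was lowest by far. The means were 10.9 ± 0.11 and 10.1 ± 0.45 (SD, n = 3 each), a fold of 0.547 (log2 difference -0.87, SE 0.20, unadjusted p = 0.0025 and adjusted p = 0.999 in limma). The difference of Acaa1b remained below 0 without each array in turn, from -1.004 to -0.61, the latter without Balb/cBy replicate 1.

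Acaa1a, the closely related thiolase, read 9.87, 9.95 and 9.75 in Balb/c and 9.33, 9.63 and 9.84 in Balb/cBy. Here the groups overlapped, since Balb/cBy replicate 3 lay above Balb/c replicate 3, and the difference was -0.26 (SE 0.14), or -0.12 without Balb/cBy replicate 1. How well the probes tell the paralogues Acaa1a and Acaa1b apart is not given in the sources used here, so the split between them is uncertain. Ehhadh, the bifunctional enzyme of the classic, ligand-induced branch, stood at 10.85, 10.81 and 10.85 in Balb/c and at 10.43, 10.97 and 10.60 in Balb/cBy. The Balb/c mice were nearly alike (SD 0.026), the Balb/cBy mice were spread (SD 0.28), and replicate 2 of the latter was the highest of all 6. Ehhadh differed by -0.17 (SE 0.14), or -0.05 without Balb/cBy replicate 1.

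Hsd17b4 is the bifunctional enzyme that handles branched fatty acids and bile acid precursors. It read 11.43, 11.50 and 11.57 in Balb/c and 11.21, 11.30 and 11.38 in Balb/cBy, apart by a small step, with a difference of -0.20 (SE 0.09, unadjusted p = 0.066). Catalase, Cat, which breaks down the hydrogen peroxide of the pathway, was at 13.67, 13.65 and 13.70 in Balb/c and at 13.50, 13.56 and 13.61 in Balb/cBy. Its groups did not overlap either, although its difference of -0.12 (SE 0.09) was small and its 95% interval, -0.31 to 0.08, includes 0. Once the arrays were recentred on their medians the groups of Cat overlapped. This left 4 genes of the list without overlap in place of 5, while the share of all genes went from 3.51% to 3.27%. The moderated SE of Cat exceeds its own SD within groups (0.027 and 0.052), since limma draws the spread of each gene towards that of all genes.

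The other genes of the peroxisomal group differed by -0.23 to 0.09, and the groups of each overlapped. Decr2, the peroxisomal dienoyl-CoA reductase, differed by -0.23, or -0.04 without Balb/cBy replicate 1. Amacr, the racemase that readies branched acyl-CoAs for oxidation, differed by -0.19, and Pex11a, which takes part in peroxisome division and is induced by PPAR-alpha ligands, by -0.19. Without Balb/cBy replicate 1 these came to -0.12 for Amacr and -0.06 for Pex11a. Scp2, whose long form is a thiolase for branched chains, and Acox2, the oxidase for bile acid precursors, differed by -0.10 and -0.08. Phyh, which starts the alpha-oxidation of phytanic acid, and Ech1, the dienoyl-CoA isomerase, were the 2 genes of the group with a mean that was not lower in Balb/cBy (0.09 and 0.01). Balb/cBy replicate 1 was the lowest array for 10 of the 12 genes, and without it the median of the group was -0.08.

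**Figure D3:**
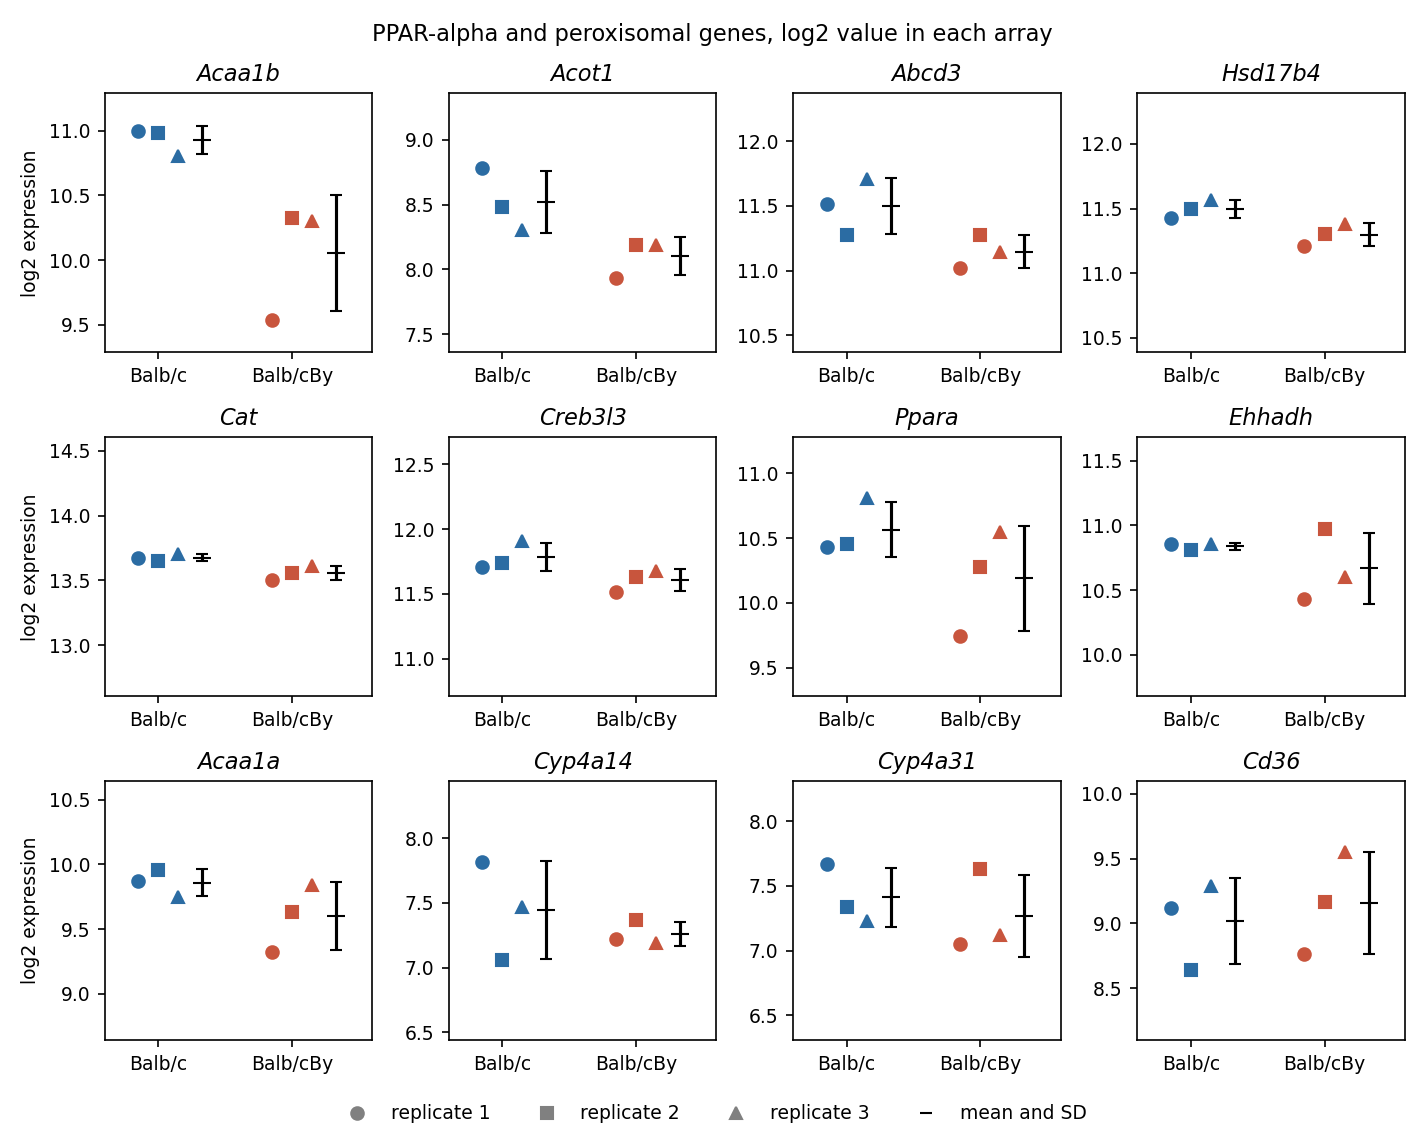
Log2 expression of single genes in each array (blue Balb/c, red Balb/cBy; circle, square and triangle are replicates 1, 2 and 3), with the mean and SD (n = 3) as a black bar; every panel spans 2 log2 units. Acaa1b, Acot1, Hsd17b4, Cat and Creb3l3 do not overlap between the substrains, and the circle of Balb/cBy replicate 1 is the lowest point for Acaa1b (9.54) and Ppara (9.74).

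Of the genes of omega oxidation, 3 of 5 were measured, and all 3 had a lower mean in Balb/cBy with overlap of the groups (median -0.19). Probe sets shared by genes of the Cyp4a cluster were left out here and went both ways, at -0.11 and 0.45. Cyp4a14, a fatty acid omega-hydroxylase that responds strongly to PPAR-alpha ligands, stood at 7.81, 7.06 and 7.47 in Balb/c and at 7.22, 7.37 and 7.19 in Balb/cBy. Its highest and its lowest value were both from Balb/c mice. The difference of Cyp4a14 was -0.19 (95% interval -0.59 to 0.22) and came to -0.0023 without Balb/c replicate 1. Cyp4a31, a neighbouring hydroxylase of the same cluster, read 7.67, 7.34 and 7.23 in Balb/c and 7.05, 7.63 and 7.12 in Balb/cBy. The substrains were mixed in that order too, at a difference of -0.14 (95% interval -0.55 to 0.27), or -0.01 without Balb/c replicate 1. These intervals leave room for a difference in either direction, and near-identical copies in the Cyp4a cluster may share signal. Aldh3a2, the fatty aldehyde dehydrogenase that follows the hydroxylases, differed by -0.32 (SE 0.19) in its brighter probe set, or -0.17 without Balb/cBy replicate 1, and by -0.14 in its dimmer one. The median of the omega group was -0.01 when Balb/c replicate 1 was left out and -0.38 when Balb/c replicate 2 was.

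Acyl-CoA thioesterases split acyl-CoA into free fatty acid and coenzyme A, in the cytosol (Acot1), in mitochondria (Acot2) and in peroxisomes (Acot3, Acot4, Acot5). Of 7, 6 were measured, and 5 had a lower mean in Balb/cBy (median -0.17). Acot1 stood at 8.78, 8.48 and 8.30 in Balb/c and at 7.94, 8.19 and 8.19 in Balb/cBy. The groups of Acot1 did not overlap, but the gap between Balb/c replicate 3 and the nearest Balb/cBy mice was smaller than the spread among the Balb/c mice. Its fold was 0.750 (log2 difference -0.42, SE 0.14, unadjusted p = 0.018 and adjusted p = 0.999), and the difference was -0.29 without Balb/c replicate 1. Acot4 differed by -0.35 (SE 0.18) with overlap, by -0.18 without Balb/cBy replicate 1, and by -0.09 in its second, dimmer probe set. Acot2 and Acot3 differed by -0.18 and -0.16, or by -0.05 and -0.01 without Balb/c replicate 1, the cytosolic acetyl-CoA hydrolase Acot12 by -0.08, and Acot5 by 0.02. Acot1 to Acot5 are close copies lying side by side, so their values may not be independent readings. The median of the thioesterases was -0.03 when Balb/c replicate 1 was left out and -0.31 when Balb/cBy replicate 2 was.

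Among the genes of fatty acid transport and activation, 8 of 9 were measured, 6 had a lower mean in Balb/cBy, and the median was -0.05. Abcd3, also called PMP70, carries long-chain and branched acyl-CoAs across the peroxisomal membrane. It read 11.52, 11.27 and 11.71 in Balb/c and 11.02, 11.28 and 11.14 in Balb/cBy. The groups met at one point, where Balb/cBy replicate 2 was level with Balb/c replicate 2, and the difference was -0.35 (SE 0.13, unadjusted p = 0.027, adjusted p = 0.999), a fold of 0.783. Its partner transporter Abcd2 differed by -0.10.

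Cd36, the scavenger receptor through which cells take up fatty acids, stood at 9.12, 8.64 and 9.29 in Balb/c and at 8.76, 9.16 and 9.55 in Balb/cBy. The mice of both substrains were interleaved, and the difference of 0.14 (95% interval -0.37 to 0.66) turned to -0.04 when Balb/c replicate 2 was left out and to -0.05 when Balb/cBy replicate 3 was. The acyl-CoA synthetases and fatty acid transport proteins Slc27a1, Slc27a2 and Slc27a4 differed by -0.05, -0.04 and 0.01. Crot and Crat, which load peroxisomal products onto carnitine for export, differed by -0.33 and -0.06. Crot was spread widely within both groups (SD 0.58 and 0.56), and its difference was 0.0017 without Balb/c replicate 3. The median of the transport group was 0.03 when Balb/c replicate 1 was left out and 0.02 when Balb/cBy replicate 1 was, so its direction rests on single arrays.

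The 3 genes grouped as other PPAR-alpha targets did not share the direction of most of the list. Each had a higher mean in Balb/cBy with overlap of the groups. Vnn1, a pantetheinase of the hepatocyte surface, stood at 8.45, 7.92 and 8.31 in Balb/c and at 8.23, 9.44 and 8.23 in Balb/cBy. Only Balb/cBy replicate 2 was high, and the difference of 0.41 (SE 0.31) was 0.0043 without it. Pdk4, the kinase that switches off pyruvate dehydrogenase when fat is burnt, read 8.12, 8.26 and 7.51 in Balb/c and 8.74, 7.79 and 7.79 in Balb/cBy. Here the high array was Balb/cBy replicate 1, the one that was low for most of the list, and the difference of 0.14 (SE 0.29) was -0.18 without it. Angptl4, a secreted inhibitor of lipoprotein lipase, was at 10.82, 10.63 and 10.35 in Balb/c and at 10.60, 10.51 and 10.79 in Balb/cBy. The values of Angptl4 were interleaved, at a difference of 0.04 (95% interval -0.28 to 0.36). The median of these 3 genes was -0.09 without Balb/c replicate 3.

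**Figure D4:**
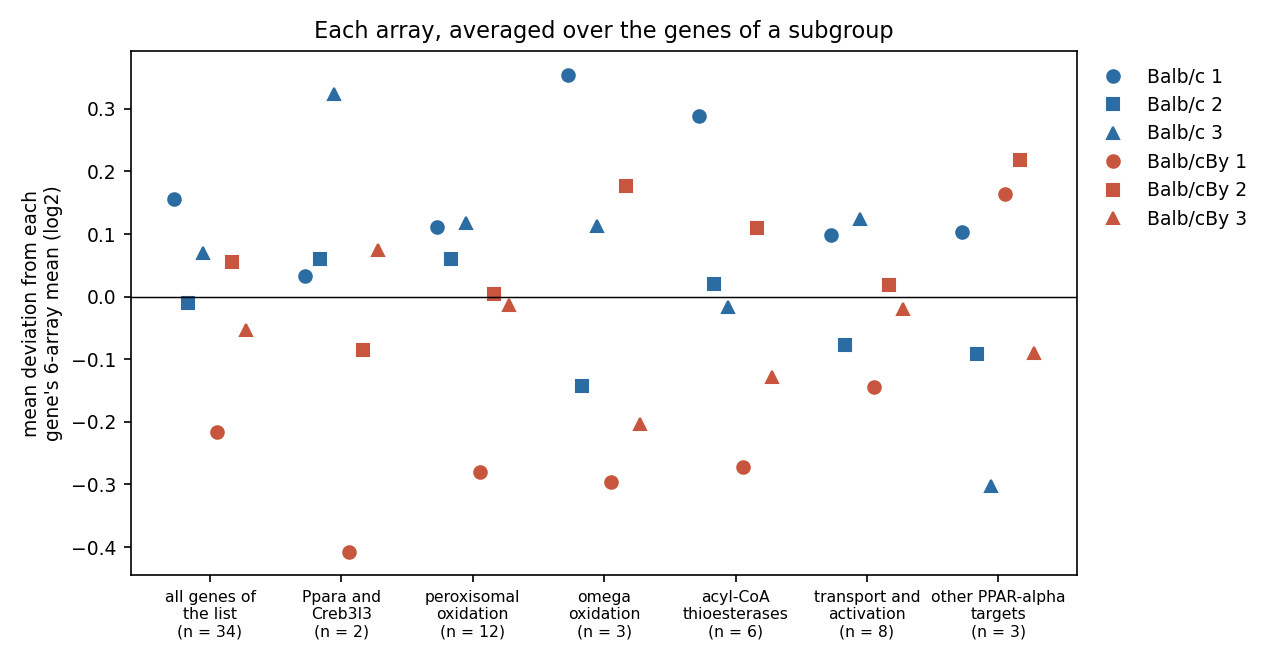
Mean deviation of each array (log2, from each gene's mean over the 6 arrays) for the whole list and its subgroups, with the number of measured genes (blue Balb/c, red Balb/cBy). Balb/cBy replicate 1 is lowest in the whole list (-0.22) and in all subgroups but the last, where Balb/c replicate 3 is lowest (-0.30).

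Genes around the pathway were taken from further lists by function. Of 31 other peroxisomal enzymes and membrane proteins, 20 were lower in Balb/cBy (64.5%, beside 50.9% of all genes, median -0.08). An unadjusted p under 0.05 in limma was reached by 1 downward and 1 upward, beside 1.16% and 2.59% of all genes. In 5 of the 31 every Balb/cBy array lay below every Balb/c array and in 3 above, beside 3.51% and 4.32% of all genes. Absence of overlap was thus not particular to the PPAR-alpha list. The genes at an unadjusted p under 0.05 were the epoxide hydrolase Ephx2 (-0.26, SE 0.11) and the peroxisomal cofactor carrier Slc25a17 (0.35, SE 0.14). Peroxins, which import proteins into peroxisomes, had a median of -0.03 (7 of 12 lower), with the import receptors Pex7 at -0.27 and Pex5 at -0.23. PPAR-alpha targets outside peroxisomes had a median of -0.04 (16 of 29 lower), led by Slc25a47, a mitochondrial carrier of liver, at -0.29 (SE 0.12) and the lipase inhibitor G0s2 at -0.59 (SE 0.27). Other Cyp4 genes were divided evenly (8 of 16 lower), with Cyp4f13 at -0.39 (SE 0.14) and Cyp4a30b at 0.28 (SE 0.12). Further thioesterases and acyl-CoA synthetases had a median of -0.03 (12 of 19 lower), with the bile acid conjugating Baat at -0.24 and Slc27a3 at -0.15. Receptor partners and cofactors leaned the other way (6 of 21 lower, median 0.03), with Ppard, the delta form of the receptor, at 0.24 (SE 0.09) and the mediator subunit Med1 at 0.25. None of the genes of these lists passed an adjusted p of 0.05 in limma. Balb/cBy replicate 1 was the lowest array for 8 of the 12 peroxins, 18 of the 29 targets outside peroxisomes and 13 of the 31 other peroxisomal genes, where it was lowest for 14.7% of all genes. Its mean deviation was -0.23 in peroxins and -0.21 in targets outside peroxisomes, beside -0.22 in the PPAR-alpha list, so its low values were not particular to that list either.

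Liver identity and other cell types were checked with marker lists. The 11 measured hepatocyte markers, albumin and transthyretin among them, had list means from 13.075 to 13.195 in Balb/c and from 13.154 to 13.243 in Balb/cBy, with 4 of 11 lower in Balb/cBy. Balb/cBy replicate 1, the array that was low for the PPAR-alpha list, deviated by -0.02 in hepatocyte markers, by -0.07 in 10 pericentral and by -0.16 in 7 periportal markers. It deviated by -0.37 in 6 adipocyte markers, where Balb/c replicate 2 (-0.33) was low as well, and by 0.40 in 17 acute phase genes. Balb/c replicate 3 stood apart with -0.79 in acute phase genes, -0.44 in 14 macrophage markers and 0.50 in 6 markers of exocrine pancreas. Between the substrains, 10 of 11 stellate cell markers (median 0.23), 16 of 17 acute phase genes (median 0.25), 8 of 10 pericentral markers (median 0.17), 10 of 14 macrophage markers (median 0.12) and 8 of 10 neutrophil markers (median 0.11) had a higher mean in Balb/cBy. All 6 markers of exocrine pancreas (median -0.31), 5 of 7 periportal markers (median -0.11) and 8 of 10 lymphocyte markers (median -0.15) had a lower one. The lymphocyte list was split. Ighm, the immunoglobulin heavy chain gene with the smallest p of that list, and Jchain were higher without overlap (1.59 and 1.12). Cd79a, Cd79b and Ms4a1 were lower without overlap (-0.17, -0.27 and -0.27). The gene with the smallest p was Lum (0.53) among stellate, Steap4 (1.09) among acute phase, Rhbg (0.36) among pericentral, Gpnmb (0.36) among macrophage, Retnlg (0.40) among neutrophil, Cel (-0.38) among pancreas and Aldh1b1 (-0.12) among periportal genes. In the remaining lists it was Serpina1a (0.55, hepatocyte), Emcn (0.55, endothelial), Cftr (-0.16, cholangiocyte), Cidec (0.52, adipocyte) and Slc4a1 (0.18, erythroid), and no marker passed an adjusted p of 0.05 in limma. The part of these in the differences of the list was not tested. In whole liver, fewer cells of a type and less RNA per cell cannot be told apart. Acads, the known substrain difference, had means of 11.4 ± 0.13 for Balb/c against 10.8 ± 0.17 for Balb/cBy (SD, n = 3 per group) without overlap. Its log2 difference was -0.65 (SE 0.12, unadjusted p = 0.00052 and adjusted p = 0.476 in limma), so it did not pass an adjusted p of 0.05 either.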

How the data were processed

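The authors deposited log2 expression for each probe set, computed by RMA according to the submitters' processing notes, and the scale is inferred from the values. For RMA, neither version nor annotation is given in the sources used here. There were 41345 probe sets on each of 6 arrays (array medians 7.66 to 7.74, correlations 0.972 to 0.988), and the number of arrays limits the precision. GEO's platform annotation, which can be old, gave 1 symbol to 23521 probe sets, several to 1814 and none here to 16010. All 22180 genes with a probe set of their own were fitted without a filter in limma 3.58.1 (R 4.3.3; lmFit, eBayes, no covariate), with Benjamini-Hochberg adjustment over all of them and a threshold of 0.05. The SE is limma's moderated SE, and folds are antilogs of the log2 differences.

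The genes, lists and named genes were chosen with earlier results of these data known. Values in every array are given for genes at an unadjusted p under 0.05, genes without overlap, the Cyp4a genes and Ppara, Ehhadh, Acaa1a, Acaa1b, Hsd17b4, Cat, Cd36, Pdk4, Angptl4 and Vnn1. Of each further pathway list the 2 genes with the smallest p are named with their difference, and of each marker list 1. On simulated data with the spread of these 22180 genes, the fit called 26% of the genes given a log2 change of 0.5, 90% at a change of 1 and 100% at 2. There 200 genes taken from all genes were changed, and 7 unchanged genes were called. Noise was drawn independently for each gene, while the listed genes moved together in some arrays and were more spread than most. These shares are therefore not the power for the listed genes. Alternatives were a replicate block, recentring, repeated quantile normalization, the mean of a gene's probe sets, 2 filters on low values, other variance models, array weights, another threshold and leaving out each array.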

Additional observations from a re-analysis of the deposited data

How the results depend on the processing

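No gene of the list passed under any alternative run, including an adjusted p of 0.1, and the smallest adjusted p of a listed gene was 0.282, without Balb/cBy replicate 1. Over all genes the count called was 12 with array weights, and 0 to 3 without each array in turn (2 when Balb/c replicate 3 was left out, 3 when Balb/cBy replicate 1 was), beside 0 otherwise. The number of listed genes lower in Balb/cBy ranged from 23 to 29, and the median difference from -0.19 to -0.072, without each array in turn. With the replicate number as a block the median was -0.15 and 26 genes were lower, as without it, and 511 in place of 833 genes had an unadjusted p under 0.05. The labels state nothing that same-numbered arrays share but the number. Deviations within groups correlated at -0.32, -0.20 and -0.23 between same-numbered arrays and at 0.015 to 0.22 between the others. Being centred within each group, these values cannot show whether mice shared a litter, cage or day. A repeated quantile normalization gave 29 lower genes, with 10 in place of 3 listed genes at an unadjusted p under 0.05 in limma. Over all genes 935 in place of 833 reached that p, and 51.6% were lower. Array weights gave 28 lower listed genes and 6 at that p. Over all genes 1761 in place of 833 reached it with array weights, and 53.5% were lower. Array weights moved Ppara to -0.12 and the medians to -0.11 for Ppara with Creb3l3, -0.11 for peroxisomal oxidation, -0.34 for omega oxidation and -0.34 for thioesterases, and that of the other PPAR-alpha targets to 0.018. The filters left 33 and 30 listed genes, of which 26 and 23 were lower (78.8% and 76.7%, beside 48.7% and 43.1% of all genes). The stricter filter, at the median of genes, removed Cyp4a14, Cyp4a31, Acot5 and Abcd2. It left Aldh3a2 (-0.32) alone in the omega group. The direction turned for Ech1 (-0.029), Slc27a4 (-0.064) and Angptl4 (-0.0070) with the repeated quantile normalization, and for Slc27a2 (0.017) with the mean of its probe sets. With array weights it turned for Ech1 (-0.043), Acot5 (-0.041), Acot12 (0.0090), Slc27a1 (0.034), Slc27a4 (-0.018) and Pdk4 (-0.14). The cause was not tested.

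Without each array in turn, differences that changed sign ranged from -0.13 to 0.0032 for Acox2, -0.20 to 0.056 for Scp2, -0.047 to 0.090 for Ech1, -0.40 to 0.0099 for Acot3, -0.023 to 0.067 for Acot5 and -0.28 to 0.15 for Acot12. They ranged from -0.18 to 0.11 for Slc27a1, -0.13 to 0.087 for Slc27a2, -0.15 to 0.12 for Slc27a4, -0.053 to 0.34 for Cd36, -0.20 to 0.079 for Abcd2, -0.15 to 0.053 for Crat and -0.64 to 0.0017 for Crot. For Angptl4 the range was -0.088 to 0.15 and for Pdk4 -0.18 to 0.30. Medians ranged from -0.14 to 0.026 for transport and activation and from -0.087 to 0.30 for the other PPAR-alpha targets. The other 19 measured genes kept their direction without each array.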

Other observations

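On the array, 2 probe sets were annotated to more than 1 gene of the Cyp4a cluster, so they were left out above and no single gene can be read from them. The probe set of Cyp4a10 and Cyp4a31 read 9.16, 7.90 and 7.53 in Balb/c and 7.73, 8.77 and 7.74 in Balb/cBy. Its means were 8.19 ± 0.85 and 8.08 ± 0.59 (SD, n = 3 each), a difference of -0.11. That of Cyp4a10 and Cyp4a32 read 8.36, 8.07 and 8.89 in Balb/c and 8.77, 9.26 and 8.64 in Balb/cBy. Its means were 8.44 ± 0.42 and 8.89 ± 0.33, a difference of 0.45. Both overlapped between the substrains, and Balb/cBy replicate 2 was the highest of its group in both, as it was for Cyp4a14 (7.37) and Cyp4a31 (7.63).

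Within groups the listed genes were more spread than most, with a median SD of 0.22 (Balb/c) and 0.23 (Balb/cBy), beside 0.12 and 0.13 over all genes. Without Balb/cBy replicate 2, the Balb/cBy arrays lay below all Balb/c arrays for 13 of the 34 genes (6.13% of all genes). The count was 6 without Balb/cBy replicate 1 (14.1% of all genes). Leaving out any other single array gave 6 to 8 (6.34% to 10.1% of all genes), so 13 was the largest count. Balb/cBy replicate 2 was the array that was lowest for 0 of the 34 genes.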
